A study of Homo sapiens with 6 samples.

Results

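Histone lysine methyltransferases and demethylases, the enzymes that write and erase methyl groups on histone lysines, were examined as a group of 38 genes. They were chosen by gene symbol and matched through their Ensembl identifiers, and all 38 were found among the 58288 genes of the expression table. Of these, 23 are writers and 15 are erasers. The cells were K562, an erythroleukemic line of human origin, in single cell clones that stably expressed a tagged mutant of the transcription factor MYB, 3xFLAG-2KR-Myb-HA or 3xFLAG-ANAA-Myb-HA, under selection with 200 µg/ml G418. In both groups endogenous MYB was knocked down with the same siRNA, si2992, and RNA was taken 24 hours later. One group was the rescue with 2KR-MYB, whose SUMO-acceptor lysines are mutated so that SUMO cannot be conjugated to it, and the other was the rescue with ANAA-MYB, which cannot bind SUMO through its SUMO-interaction motif. Each group had 3 replicates, all from 1 clone, so a difference between the mutants and a difference between the clones cannot be told apart, and the p-values measure only the spread between these libraries. The control, knockdown and WT-MYB rescue were not used here.

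Methyl groups on histone lysines do not alter the charge of the tail; they are read by proteins that bind a given lysine in a given methylation state. Methylation of H3K4 marks promoters and enhancers, and that of H3K36 and H3K79 marks transcribed gene bodies. Trimethylation of H3K9, H3K27 and H4K20 is found in silent or compacted chromatin. Most writers carry a catalytic SET domain, with DOT1L as the exception, and the erasers are either flavin-dependent amine oxidases of the KDM1 family or oxygen- and 2-oxoglutarate-dependent JmjC enzymes. In erythroid cells the amine oxidase KDM1A works with the repressor GFI1B, and EZH2, KMT2A and KDM6A are well known for their mutation in leukemia.

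The expression of each gene was deposited as FPKM, by definition fragments scaled by transcript length and by the mapped fragments of the library. In this unit levels can be compared between genes. How these libraries were in fact scaled is not given. A test with limma was made on log2(FPKM + 1), with 2KR-MYB taken minus ANAA-MYB, for the 12634 genes whose average over the 6 libraries reached 1 FPKM, and a Benjamini-Hochberg adjusted p under 0.01 over all tested genes was the threshold. Fold changes on this scale understate the change of genes at low levels, and with 3 libraries against 3 an exact two-sided permutation test of a single gene cannot give a p below 0.1. The FPKM values summed to between 579920 and 633662 per library, and the read depth behind them is unknown. MYB itself, to which transcripts of the constructs also map, measured 69.0, 61.2 and 67.5 FPKM with 2KR-MYB and 53.6, 55.3 and 62.0 FPKM with ANAA-MYB (log2 fold change 0.21, adjusted p by limma = 0.062). All 9 erythroid genes looked up in the libraries were expressed, from EPOR at 2.84 FPKM to HBG2 at 914 FPKM, of which GATA1, KLF1 and TFRC passed as higher with ANAA-MYB. The other 6 did not pass; TAL1 and HBE1 had positive log2 fold changes of 0.30 and 0.23 (adjusted p by limma = 0.045 and 0.028) with libraries that did not overlap, HBZ had 0.077, and those of HBG1, HBG2 and EPOR were negative. HBG1 and HBG2 are near-identical copies whose reads can be split between them. Of 6 lymphoid and monocyte genes, 5 were under the filter, with MS4A1 listed at 0 in every library, while CD3D, a T cell receptor subunit gene, stood at 26.1 to 62.7 FPKM and passed as higher with ANAA-MYB. The erythroid genes summed to 1762 to 1883 FPKM per library with 2KR-MYB and 1990 to 2388 FPKM with ANAA-MYB, and the lymphoid and monocyte genes, nearly all of it CD3D, to 26.97 to 31.4 FPKM and 43.4 to 63.3 FPKM. The part of these marker genes in the results on the enzymes was not tested, and in bulk RNA fewer cells of a type and less RNA per cell cannot be told apart.

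All 38 enzyme genes passed the filter on low values. Their median level was 19.7 FPKM, compared with 13.6 FPKM over all tested genes. The most highly expressed were KDM1A (84.6 FPKM over the 6 libraries), the H4K20 writer KMT5A (80.3 FPKM) and the H3K27 writer EZH2 (61.5 FPKM). The least expressed were the H3K27 eraser KDM6B (6.30 FPKM), the H3K9 eraser KDM4C (7.12 FPKM) and KDM7A (7.60 FPKM). KDM1A and KMT5A overlapped in their 6 library values, whereas no library of EZH2 reached the lowest library of KMT5A in the same rescue.

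**Figure D1:**
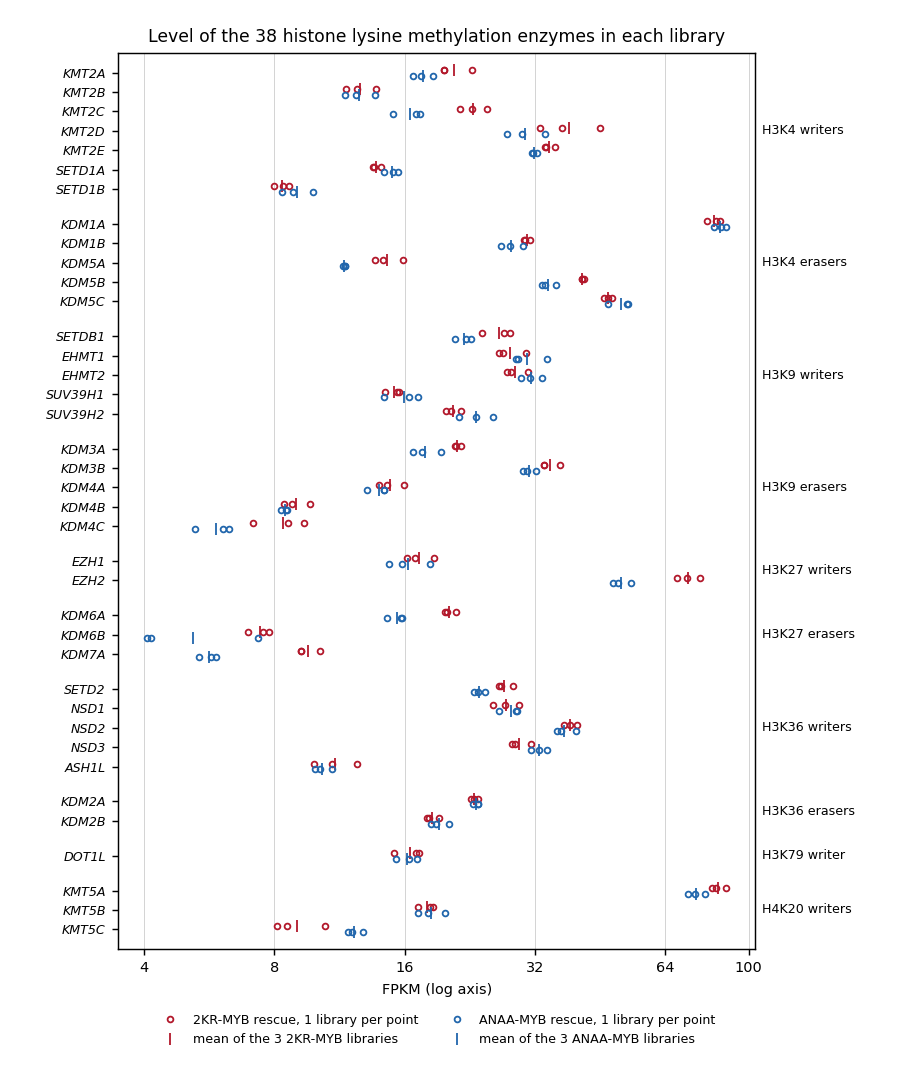
FPKM of the 38 enzyme genes on a log axis, grouped by the mark they write or erase, with 1 open circle per library, red for the 2KR-MYB rescue and blue for the ANAA-MYB rescue, and a vertical tick at the mean of the 3 libraries. The circles of EZH2, KDM6A and KDM7A lie apart by color, with red on the right, while those of KDM2A, NSD2 and DOT1L intermingle.

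Between the rescues, 5 of the 38 genes passed the threshold, beside 13% of all tested genes, so the share that passed was close to the background. These were KDM7A, EZH2, KMT2C, KDM6A and KDM5B, and all 5 were higher with 2KR-MYB, a direction in which 5.57% of all tested genes passed. In limma 0 of the 38 passed as higher with ANAA-MYB, a direction in which 7.42% of all tested genes passed. At an unadjusted p under 0.05, 16 of the 38 were higher with 2KR-MYB and 3 with ANAA-MYB, namely KMT5C, SUV39H2 and NSD3, beside 17.8% and 21.6% of all tested genes in these directions. The median log2 fold change of the 38 genes was 0.082 and 24 of them were positive, set beside a median of -0.015 and 46.8% positive over all tested genes. The libraries of the rescues did not overlap in 17 of the 38 genes, 15 higher with 2KR-MYB and 2, SETD1A and KMT5C, with ANAA-MYB, beside 44.9% of all tested genes, 20.1% and 24.8% in these directions. Among the 15 erasers 3 passed with a median log2 fold change of 0.15, and among the 23 writers 2 passed with a median of 0.017. Among all tested genes 42.9% of those past the threshold were higher with 2KR-MYB, a share that became 54.5% after upper quartile scaling. The number of enzyme genes that passed fell to 3 when the second ANAA-MYB replicate was left out, namely EZH2, KDM6A and KDM7A. Of all genes tested in that fit 7.13% passed.

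**Figure D2:**
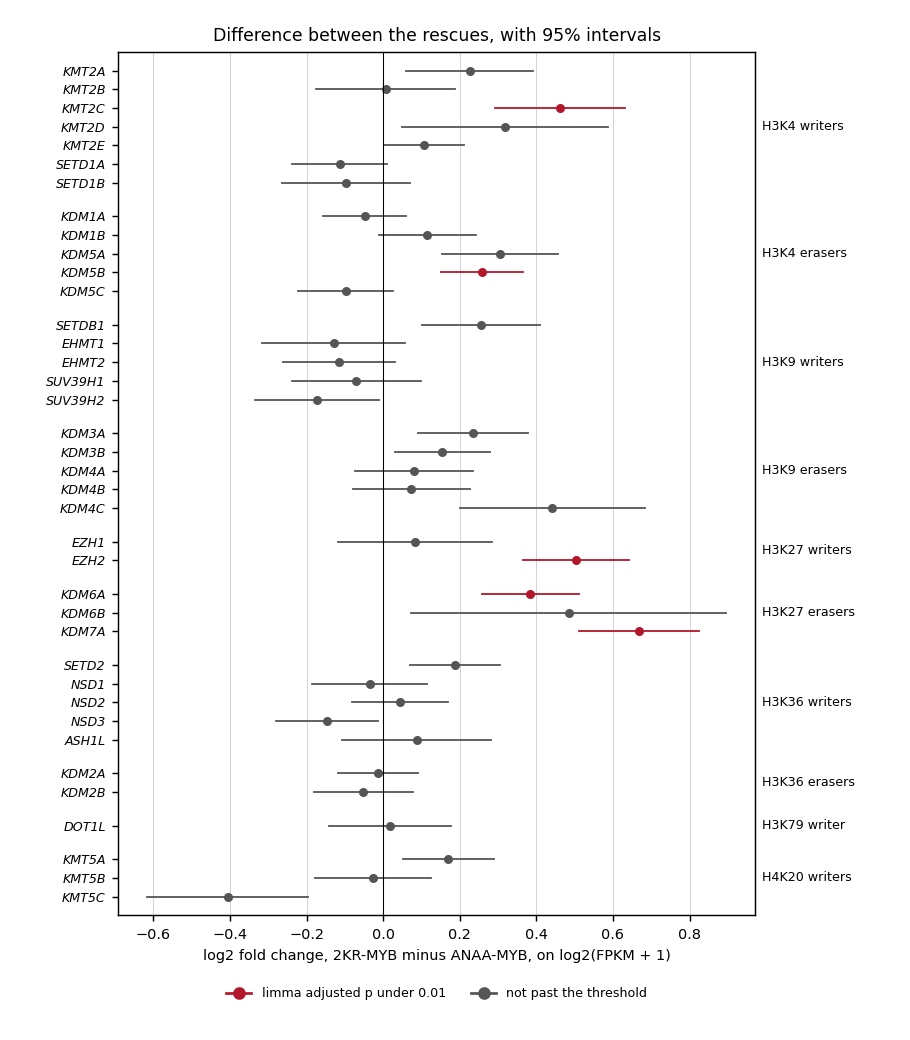
Log2 fold change of each enzyme gene, 2KR-MYB minus ANAA-MYB with FPKM taken as log2(FPKM + 1), with its 95% interval from limma; red marks the 5 genes past an adjusted p of 0.01 and gray the other 33. The red intervals of KMT2C, KDM5B, EZH2, KDM6A and KDM7A lie wholly to the right of 0, KMT5C has the lowest value at -0.41, and the interval of KDM6B is wide, from 0.074 to 0.90.

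The enzymes of H3K27 showed the largest ratios of summed levels between the rescues. EZH2 (ENSG00000106462, GRCh38 chromosome 7, 148807383 to 148884291), the main catalytic subunit of Polycomb repressive complex 2 in dividing cells, measured 68.1, 77.0 and 71.8 FPKM with 2KR-MYB and 48.7, 53.5 and 49.9 FPKM with ANAA-MYB. All 3 libraries of the 2KR-MYB rescue lay well above those of the ANAA-MYB rescue. The log2 fold change was 0.50 (SE 0.060, adjusted p by limma = 0.00084), a ratio of means of 1.43. Its paralogue EZH1, which can replace it in the same complex, was at 17.3 ± 1.30 FPKM and 16.3 ± 1.83 FPKM (SD, n = 3 each), with a log2 fold change of 0.083 (95% interval -0.12 to 0.28). The ratio of EZH2 to EZH1 ran from 3.84 to 4.55 in the 2KR-MYB libraries and from 2.66 to 3.64 in the ANAA-MYB libraries, without overlap. EZH2 passed under every alternative setting that was tried, with adjusted p from 0.00039 to 0.0070.

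The erasers of H3K27 took the same direction as EZH2. KDM7A (ENSG00000006459, chromosome 7, 140084746 to 140176983), a JmjC enzyme that acts on dimethylated H3K9 and H3K27, measured 9.23, 10.2 and 9.24 FPKM with 2KR-MYB and 5.86, 5.35 and 5.72 FPKM with ANAA-MYB. The gap between the groups was several times the range within either. With a log2 fold change of 0.67 (SE 0.068, adjusted p by limma = 0.00044) and a ratio of means of 1.69, it showed the largest difference of the 38 genes, and it passed under every alternative setting. KDM6A (ENSG00000147050, chromosome X, 44873188 to 45112779), also named UTX, removes H3K27 methylation as part of the complexes built on KMT2C and KMT2D. It measured 21.1, 19.8 and 20.02 FPKM with 2KR-MYB and 15.7, 14.6 and 15.8 FPKM with ANAA-MYB, again without overlap. Its log2 fold change was 0.38 (SE 0.055, adjusted p by limma = 0.0020), and it missed the threshold, at an adjusted p of 0.0104, only when the first 2KR-MYB replicate was left out.

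KDM6B, the inducible relative of KDM6A, measured 6.95, 7.79 and 7.52 FPKM with 2KR-MYB and 7.33, 4.07 and 4.14 FPKM with ANAA-MYB. The first ANAA-MYB replicate lay within the range of the 2KR-MYB libraries, and the other two lay far below it. The log2 fold change of 0.48 (SE 0.18, adjusted p by limma = 0.080) did not pass, and without the first ANAA-MYB replicate it was 0.72 with an adjusted p of 0.0018. The ratio of KDM6A to KDM6B overlapped between the rescues, at 2.55 to 3.03 and 2.14 to 3.804. Summed over their genes, the H3K27 erasers stood at 37.3 ± 0.516 FPKM with 2KR-MYB and 26.2 ± 2.47 FPKM with ANAA-MYB, and the H3K27 writers at 89.6 ± 4.87 and 67.0 ± 1.30 FPKM (SD, n = 3 each). Writers and erasers of this mark were thus both higher with 2KR-MYB, with ratios of the summed levels of 1.34 and 1.43, in which the genes that passed, EZH2, KDM6A and KDM7A, take the larger part.

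Among the H3K4 writers, 1 of 7 passed (14.3%), beside 13% of all tested genes. KMT2C (ENSG00000055609, chromosome 7, 152134925 to 152436003), also named MLL3, methylates H3K4 at enhancers. It measured 21.5, 22.9 and 24.8 FPKM with 2KR-MYB and 17.3, 15.1 and 17.0 FPKM with ANAA-MYB, with no overlap between the groups. The log2 fold change was 0.46 (SE 0.074, adjusted p by limma = 0.0032), and without the second replicate of either rescue it missed the threshold, with an adjusted p of 0.014 without that of the 2KR-MYB rescue and 0.011 without that of the ANAA-MYB rescue; it also missed it, at 0.017, with no filter on low values. Stretches of KMT2C are near-identical to BAGE-family copies elsewhere in the genome, so reads can be split between them and its value is uncertain. KMT2D, its paralogue at enhancers, was at 38.4 ± 6.35 FPKM and 30.4 ± 3.10 FPKM (SD, n = 3 each), and its groups overlapped (log2 fold change 0.32, adjusted p by limma = 0.078). The ratio of KMT2C to KMT2D overlapped between the rescues, at 0.547 to 0.698 with 2KR-MYB and 0.505 to 0.616 with ANAA-MYB. KMT2A, the MLL gene that is rearranged in leukemia, had a log2 fold change of 0.23 (95% interval 0.0605 to 0.39) and an adjusted p of 0.050, so it missed the threshold although its libraries did not overlap.

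The remaining H3K4 writers lay closer to 0. KMT2B was at 12.6 FPKM in both rescues, with a log2 fold change of 0.0066 (95% interval -0.18 to 0.19). KMT2E, a relative with little methyltransferase activity of its own, had one of 0.11 (95% interval 0.0021 to 0.21). SETD1A and SETD1B, which provide most of the trimethylation of H3K4 at promoters, had log2 fold changes of -0.11 and -0.098. The libraries of SETD1A did not overlap, at 13.5 to 14.1 FPKM with 2KR-MYB and 14.3 to 15.4 FPKM with ANAA-MYB, but the adjusted p was 0.16.

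Among the H3K4 erasers, 1 of 5 passed (20%), beside 13% of all tested genes. KDM5B (ENSG00000117139, chromosome 1, 202724495 to 202808421), a JmjC enzyme that removes methyl groups from trimethylated H3K4, measured 41.5, 41.1 and 41.1 FPKM with 2KR-MYB and 33.8, 33.3 and 35.8 FPKM with ANAA-MYB. The 2KR-MYB libraries were nearly equal and lay above every ANAA-MYB library. The log2 fold change was 0.26 (SE 0.047, adjusted p by limma = 0.0055). This call was the least stable of the 5: it was lost without each of the 3 replicates of the 2KR-MYB rescue and without the first and the second of the ANAA-MYB rescue, with adjusted p from 0.017 to 0.024 in these fits and a log2 fold change from 0.24 to 0.26, and it was kept, at an adjusted p of 0.0064, without the third replicate of the ANAA-MYB rescue. It was also lost with no filter on low values, at an adjusted p of 0.011, and with the replicate number as a block, at 0.014.

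MYB binds DNA at short sites, and the hexamers CAACGG and TAACGG and also CAACTG and TAACTG, the forms of its core site, were searched on both strands in the 250 bases before each annotated start. Of 35116 such windows in the RefSeq table of GRCh38.p14, 21.1% held at least 1 of them, or 24.9% of 27305 genes. Among the 35 enzyme genes with a window, 9 held a match. KDM5B was the only one of the 5 genes past the threshold to hold any, and it held 2, at 212 and 9 bases before the start. Its window is shown because it is the one promoter of a gene past the threshold with these letters; it is chr1:202808422-202808671 on the minus strand of GRCh38.p14, written from the distal base to the base before the start, with the matches in capitals.
KDM5B: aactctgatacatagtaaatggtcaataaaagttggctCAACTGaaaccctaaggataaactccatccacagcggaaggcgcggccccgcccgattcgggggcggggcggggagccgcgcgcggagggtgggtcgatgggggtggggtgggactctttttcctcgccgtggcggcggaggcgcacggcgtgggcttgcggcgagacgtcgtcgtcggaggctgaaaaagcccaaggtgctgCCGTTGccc
The distal match reads as listed and the proximal one is the reverse complement of CAACGG. The other 8 genes with a match were KDM2A, KDM2B, KDM5C, KDM6B, KMT2E, KMT5A, KMT5C and SUV39H1, none of which passed the threshold. A match is a description of the letters in the window and does not show binding. SETD1B, DOT1L and NSD3 were not searched.

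KDM5A, a close relative of KDM5B, stood at 13.6, 15.9 and 14.3 FPKM with 2KR-MYB and at 11.6 FPKM in each library with ANAA-MYB. The ANAA-MYB libraries were all below the lowest 2KR-MYB library. Its log2 fold change of 0.30 (SE 0.065, adjusted p by limma = 0.0115) fell just short of the threshold. KDM5C, the X-linked member of this family, leaned the other way at 47.3 ± 1.09 and 50.7 ± 2.92 FPKM (SD, n = 3 each), with a log2 fold change of -0.098 (95% interval -0.22 to 0.026). The ratio of KDM5B to KDM5C therefore lay between 0.849 and 0.888 in the 2KR-MYB libraries and between 0.648 and 0.703 in the ANAA-MYB libraries. It joins genes already seen to lean in opposite directions and is no further evidence. The amine oxidases KDM1A and KDM1B had log2 fold changes of -0.048 (95% interval -0.16 to 0.060) and 0.12 (95% interval -0.011 to 0.24), and neither passed.

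Each gene was counted under a single mark, so KDM7A, which also acts on dimethylated H3K9 and passed, stands with the H3K27 erasers. In limma 0 of the 5 H3K9 writers and 0 of the 5 other H3K9 erasers passed the threshold, beside 13% of all tested genes. At an unadjusted p under 0.05 these were 2 writers, SETDB1 and, in the other direction, SUV39H2, and 3 erasers, KDM3A, KDM3B and KDM4C. Of all tested genes 17.8% were higher with 2KR-MYB and 21.6% with ANAA-MYB at that p. SETDB1, which methylates H3K9 at repeats together with TRIM28, was at 26.5 ± 2.03 and 22.0 ± 0.952 FPKM (SD, n = 3 each), with a log2 fold change of 0.26 (adjusted p by limma = 0.025). The other 4 H3K9 writers had negative log2 fold changes, from -0.17 in SUV39H2 to -0.070 in SUV39H1, with -0.13 in EHMT1 and -0.11 in EHMT2, the pair that forms the main H3K9 dimethylating enzyme outside constitutive heterochromatin, and their libraries overlapped. All 5 H3K9 erasers had positive values. KDM4C, which acts on trimethylated H3K9, measured 7.13, 9.38 and 8.59 FPKM with 2KR-MYB and 6.09, 5.24 and 6.30 FPKM with ANAA-MYB. These libraries did not overlap, but they were spread widely within each rescue, and the log2 fold change of 0.44 (SE 0.10, adjusted p by limma = 0.017) did not pass.

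KDM3A, an oxygen-sensitive eraser of mono- and dimethylated H3K9, was at 21.2 ± 0.351 and 17.9 ± 1.36 FPKM (SD, n = 3 each; log2 fold change 0.23, adjusted p by limma = 0.026). KDM3B, KDM4A and KDM4B had log2 fold changes of 0.15, 0.082 and 0.073. The summed level of the H3K9 erasers was 88.0 ± 2.34 FPKM with 2KR-MYB and 77.2 ± 2.40 FPKM with ANAA-MYB, and that of the H3K9 writers was 119 ± 5.27 and 124 ± 2.37 FPKM (SD, n = 3 each). The library sums of the erasers were apart between the rescues and those of the writers overlapped. The ratio of SUV39H2 to SUV39H1 also overlapped, at 1.28 to 1.49 with 2KR-MYB and 1.25 to 1.78 with ANAA-MYB.

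In limma 0 of the 8 enzymes counted under H3K36 and H3K79 passed, beside 13% of all tested genes. At an unadjusted p under 0.05 SETD2 was higher with 2KR-MYB and NSD3 with ANAA-MYB. Among all tested genes these directions held 17.8% and 21.6%. SETD2, the enzyme of H3K36 trimethylation, was at 27.2 ± 1.05 and 23.8 ± 0.717 FPKM (SD, n = 3 each), a log2 fold change of 0.19 (95% interval 0.071 to 0.31, adjusted p by limma = 0.029). The dimethylating enzymes NSD1, NSD2 and ASH1L had log2 fold changes of -0.035, 0.044 and 0.087 and NSD3 one of -0.15, none of which passed. The erasers KDM2A and KDM2B had values of -0.013 (95% interval -0.12 to 0.092) and -0.052 (95% interval -0.18 to 0.077). DOT1L, the writer of H3K79 methylation, was at 16.5 ± 1.19 and 16.3 ± 0.902 FPKM (SD, n = 3 each), with a log2 fold change of 0.017 (95% interval -0.14 to 0.18).

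Of the 3 writers of H4K20 methylation 0 passed in limma, beside 13% of all tested genes. At an unadjusted p under 0.05 KMT5A was higher with 2KR-MYB and KMT5C with ANAA-MYB, beside 17.8% and 21.6% of all tested genes. KMT5C, which adds the second and the third methyl group, measured 8.12, 10.5 and 8.55 FPKM with 2KR-MYB and 12.1, 12.9 and 11.8 FPKM with ANAA-MYB. All ANAA-MYB libraries were above all 2KR-MYB libraries. Its log2 fold change of -0.41 (SE 0.091, adjusted p by limma = 0.014) was the lowest of the 38 genes, and without the second 2KR-MYB replicate it passed, at -0.51 and an adjusted p of 0.0042. KMT5A, which adds the first methyl group and is tied to the cell cycle, was at 85.1 ± 3.29 and 75.5 ± 3.35 FPKM (SD, n = 3 each), with a log2 fold change of 0.17 (adjusted p by limma = 0.043). KMT5B, the paralogue of KMT5C, had a log2 fold change of -0.027 (95% interval -0.18 to 0.12). The ratio of KMT5A to KMT5C ran from 8.01 to 10.4 in the 2KR-MYB libraries and from 6.12 to 6.21 in the ANAA-MYB libraries. This separation follows from the opposite directions of these genes.

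The windows around the hexamers before KMT5C and KMT5A are shown, since these genes stood at opposite ends among the H4K20 writers and both held a match, as is that of KDM6B, whose log2 fold change had the largest SE of the 38 genes. The capitals mark the match, and each run is on the plus strand of GRCh38.p14. They are chr19:55339774-55339803 for KMT5C, chr12:123383964-123383993 for the distal match of KMT5A, and chr17:7839873-7839902 for the proximal match of KDM6B, 90, 156 and 32 bases before an annotated start.
KMT5C: tgagcttcgtagCAACGGaggagtggcggt
KMT5A: ggaaagcgtttgCAGTTAttgcggcggctg
KDM6B: gacccccacctcTAACTGacttttttcttt
The letters before KMT5A are the reverse complement of TAACTG, the form that stands before KDM6B, and the form before KMT5C, CAACGG, also stands before KMT2E, whose log2 fold change was 0.11.

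In all, 7 genes had an adjusted p from 0.01 to under 0.05, 6 of them higher with 2KR-MYB: KDM5A, SETDB1, KDM3A, KDM4C, SETD2 and KMT5A, with KMT5C higher with ANAA-MYB. At a threshold of 0.05, 12 of the 38 genes thus passed, beside 26.9% of all tested genes, 12% higher with 2KR-MYB and 14.9% with ANAA-MYB. Of the other 26 genes, 23 had a log2 fold change within 0.2 of 0, the exceptions being KMT2A, KMT2D and KDM6B. For 21 of the 26 the 95% interval lay within 0.3 of 0, so that a larger difference was outside their intervals. The 5 whose intervals reached further were KMT2A, KMT2D, EHMT1, SUV39H2 and KDM6B.

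Of the 5 genes past the threshold, 3 lie on the long arm of chromosome 7, where KDM7A, EZH2 and KMT2C follow each other toward the end of the chromosome. Chromosome 7 held 4 of the 38 genes, and the remaining one, KMT2E, did not pass. Of the 34 genes on other chromosomes 2 passed (5.88%), beside 13% of all tested genes. The share that passed among all tested genes of chromosome 7 was not computed. Each gene was therefore set beside up to 50 tested genes nearest to it on its chromosome, 25 on either side where present. Around KMT2C the median log2 fold change of 45 neighbours was 0.28 and 88.9% of them were higher with 2KR-MYB. Around EZH2 the median was 0.21 with 82% higher, and 9 of 50 neighbours had a larger value than EZH2. The surroundings of KMT2C and EZH2 were thus shifted in the same direction as the genes themselves. These neighbour sets are not separate: those of EZH2 and KMT2C share genes, and EZH2 and KDM7A are each in the set of the other.

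KDM7A stood further from its neighbours, whose median was 0.082 with 74% of them higher with 2KR-MYB, beside 46.8% of all tested genes, and 3 of 50 lay above it. KDM6A and KDM5B were higher with 2KR-MYB in surroundings that leaned the other way, with neighbour medians of -0.14 and -0.043, and 1 and 2 of their 50 neighbours lay above them. When the neighbour median was subtracted from each gene in every library, an alternative chosen after the values had been seen, KMT2C had a log2 fold change of 0.17 and no longer passed (adjusted p by limma = 0.12). EZH2 had one of 0.29 and KDM7A one of 0.56, both still past the threshold (adjusted p = 0.0064 and 0.00087). KDM6A (0.51) and KDM5B (0.31) also passed, and with them KDM5A, SETDB1, KDM3A and KDM4C, so that 8 of the 38 genes passed in this setting. Of the 11541 genes tested in it, 1529 passed (13.2%). The part of these shifted stretches in the results was not tested.

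**Figure D3:**
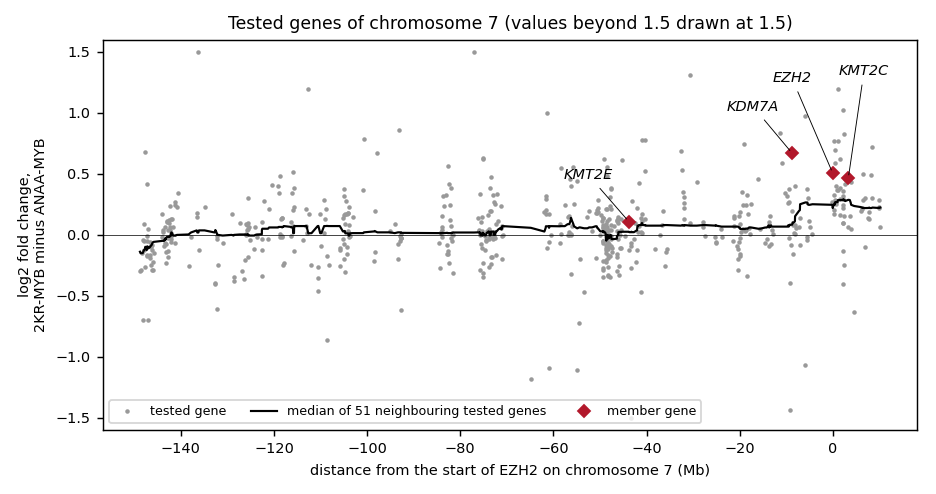
Log2 fold change, 2KR-MYB minus ANAA-MYB, of the 578 tested genes with a position on chromosome 7 against their distance in Mb from the start of EZH2, with a line at the running median of 51 neighbouring tested genes and red diamonds for the enzyme genes; values beyond 1.5 are drawn at 1.5. The line runs near 0 over most of the chromosome and is higher toward its right end, where EZH2 and KMT2C lie above it, while KMT2E lies where the line is near 0.

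Most of these enzymes work in complexes, and 54 partner genes were looked up as well, of which 53 were tested and 5 passed (9.43%), beside 13% of all tested genes. Of these 5, 4 were higher with ANAA-MYB, and the number that passed was between 1 and 3 whichever library was left out. ASH2L, a core subunit shared by all H3K4 methyltransferase complexes of the KMT2 and SETD1 family, measured 88.6, 88.5 and 91.2 FPKM with 2KR-MYB and 113, 122 and 127 FPKM with ANAA-MYB (log2 fold change -0.43, adjusted p by limma = 0.0011). RBBP5, another subunit of that core, had a log2 fold change of -0.32 (adjusted p by limma = 0.0032), with 24.3 ± 0.940 and 30.6 ± 0.919 FPKM (SD, n = 3 each). Both were lower in the rescue in which KMT2C was higher. Their neighbours leaned the same way as they did, with medians of -0.13 around ASH2L and -0.11 around RBBP5. In limma 0 of the other 12 subunits of these complexes passed, and they took both directions. WDR5, DPY30, HCFC1 and PAGR1 were at -0.15, -0.12, -0.15 and -0.22, while PAXIP1, HCFC2 and BOD1 were at 0.19, 0.29 and 0.16. For each of these genes the libraries of the rescues did not overlap, as for NCOA6 at 0.14 and for ASH2L and RBBP5. In all, 10 of the 14 subunits were apart in this way, 4 higher with 2KR-MYB and 6 with ANAA-MYB. Among all tested genes the share was 44.9%, 20.1% and 24.8% in these directions. CXXC1, WDR82, MEN1 and PSIP1 overlapped. PAXIP1, with an adjusted p by limma of 0.039, lies on chromosome 7 among neighbours with a median of 0.23. Of all 14 subunits, 4 had a positive log2 fold change and 10 a negative one. At an unadjusted p under 0.05, 3 of them were higher with 2KR-MYB and 5 with ANAA-MYB, beside 17.8% and 21.6% of all tested genes.

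Among 9 genes for subunits of Polycomb repressive complex 2, 2 passed (22.2%), MTF2 and PHF19, in opposite directions, beside 13% of all tested genes. These encode alternative accessory subunits of the same complex. MTF2 was at 48.6 ± 2.61 and 40.3 ± 1.10 FPKM (SD, n = 3 each; log2 fold change 0.26, adjusted p by limma = 0.0088). PHF19 was at 85.1 ± 1.97 and 99.1 ± 0.4999 FPKM (SD, n = 3 each; log2 fold change -0.22, adjusted p by limma = 0.0066). The core subunits did not follow EZH2: EED and SUZ12 had log2 fold changes of -0.19 and -0.18 (adjusted p by limma = 0.032 and 0.025), and RBBP4 and RBBP7 of -0.11 and -0.10. The accessory subunits AEBP2 and JARID2 were at 0.21 and 0.064 and PHF1 at -0.073, and they did not pass. At an unadjusted p under 0.05, 2 of the 9 genes were higher with 2KR-MYB and 5 with ANAA-MYB, beside 17.8% and 21.6% of all tested genes. GFI1B, which recruits KDM1A to erythroid genes, measured 24.6, 23.9 and 25.5 FPKM with 2KR-MYB and 33.1, 31.2 and 39.0 FPKM with ANAA-MYB (log2 fold change -0.46, adjusted p by limma = 0.0047). KDM1A itself and its CoREST partner RCOR1 did not pass, at -0.048 and -0.13. PHF21A, also of this complex, was at 0.22 (adjusted p by limma = 0.023) and did not pass either. Of the 8 partner genes of KDM1A and CoREST 1 passed (12.5%), GFI1B, beside 13% of all tested genes. Among these 8, 1 log2 fold change was positive and 7 were negative. In limma 0 of the 11 partners and readers of H3K9 methylation passed (unadjusted p under 0.05 in 1 higher with 2KR-MYB and 2 with ANAA-MYB), and likewise 0 of the 8 partners of H3K36 and other enzymes, where 0 had an unadjusted p under 0.05. Of the DOT1L complex MLLT3 was under the filter, and 0 of the other 3 genes passed, with 1, MLLT6, at an unadjusted p under 0.05.

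Outside the 38 genes, 30 further genes with a SET or JmjC domain were looked up, of which 29 were tested. Of these, 5 passed (17.2%), 3 higher with ANAA-MYB and 2 higher with 2KR-MYB. Among all tested genes 13% passed, 7.42% and 5.57% in these directions. Whichever library was left out, 3 or 4 of these further genes passed. JMJD4, a JmjC enzyme that hydroxylates a translation termination factor, had a log2 fold change of -0.64 (adjusted p by limma = 0.00021), SMYD2 of -0.39 (adjusted p = 0.0021) and SMYD3 of -0.29 (adjusted p = 0.0044). These SMYD genes encode lysine methyltransferases with many substrates other than histones. All 3 lie on the long arm of chromosome 1 among neighbours that were lower with 2KR-MYB, with medians of -0.27, -0.17 and -0.30. SMYD3 differed from its neighbours by 0.012. JMJD6 (0.40, adjusted p = 0.0010), a JmjC enzyme that hydroxylates splicing factors, and the SET-domain gene PRDM4 (0.29, adjusted p = 0.0058) were higher with 2KR-MYB, with neighbour medians of 0.030 and 0.047.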

How the data were processed

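RNA of 6 libraries, 3 per rescue, was sequenced as 150 bp pairs from strand-specific poly(A) preparations. The authors deposited FPKM per gene for every replicate. Their processing notes name bcl2fastq 2.18.0.12, Trimmomatic 0.36, TopHat2 2.1.1, Cufflinks and Cuffdiff 2.2.1, and the build GRCh38; which annotation was used, and how Cuffdiff scaled the libraries, is not given in the sources used here. The table holds 12 further columns of per-sample values, which were left out. FPKM holds no counts, and no reads could be recovered: among values under 0.5 FPKM, no more than 3.90% of the ratios between 2 libraries fell within 1% of a common value (15 pairs). The precision that depth gives is therefore unknown.

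Genes averaging 1 FPKM or more were fitted with limma 3.58.1 (R 4.3.3; linear model, empirical Bayes with trend) on log2(FPKM + 1), with p-values adjusted over all 12634. The steps were tested on simulated data. Of the marker genes, 2 are not reported here. Positions and promoter windows came from RefSeq tables for GRCh38.p14 by symbol; 11541 tested genes had a position and 35 of the 38 enzymes a promoter window. Python 3.11.15 with numpy 2.4.6 and matplotlib 3.10.9 drew the figures.

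The enzymes, the other lists and the alternatives were chosen with earlier results of these data known. All 38 enzymes are accounted for, with every library's value for those past the threshold. Partner and further enzyme genes were named when past the threshold, at most 10 per list, and any others after their values were seen. Alternatives were pseudocounts of 0.1 and 0.01, filters of none and of 5 FPKM, scaling to the upper quartile, quantile normalization, a robust prior for the variance, the replicate number as block, a threshold of 0.05, leaving out each library, and subtracting the neighbour median.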

Additional observations from a re-analysis of the deposited data

How the results depend on the processing

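EZH2 and KDM7A passed in all 16 alternative settings. The number of the 38 genes past the threshold, 5 at first, was 5 with either pseudocount and 6 with a mean of at least 5 FPKM. Of all tested genes 13%, 13.1% and 13.8% passed in these fits. Without a filter on low values 3 enzymes passed (EZH2, KDM6A and KDM7A), all higher with 2KR-MYB, beside 3 partner genes, 3 further enzymes and 942 of all genes, with 28536 genes tested. Upper quartile scaling gave 8 enzymes, all higher with 2KR-MYB, and quantile normalization 7, beside 13.8% and 13.5% of all genes. These scalings moved the median of all genes to 0.024 and 0.0046. The robust prior gave 7, of which 1, KMT5C, was higher with ANAA-MYB, beside 14.1% of all genes. A threshold of 0.05 gave 12 enzymes (11 higher with 2KR-MYB and 1 with ANAA-MYB), 10 partners, 11 further enzymes and 3402 of all genes. Subtracting the neighbour median, chosen after the data were seen, gave 8 enzymes, all higher with 2KR-MYB, 2 partners and 3 further enzymes. Of all genes tested in that setting 13.2% passed.

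The replicate numbers did not pair the libraries: deviations of same-numbered libraries correlated at -0.052, -0.035 and -0.0026. With the replicate block 4 enzymes passed, without KDM5B (adjusted p by limma 0.014), as did 3 partners, 3 further enzymes and 1089 of all genes.

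With 1 library left out, 3 to 5 enzymes passed, 3 to 5 higher with 2KR-MYB and 0 to 1 with ANAA-MYB, beside 1 to 3 partners, 3 to 4 further enzymes and 852 to 1204 of all genes. Enzymes were 3 without the second ANAA-MYB replicate, and partners were 1 without the first or the second 2KR-MYB or the first ANAA-MYB replicate.

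The genes that changed sign were not past the threshold, with log2 fold changes from -0.13 in EHMT1 to 0.017 in DOT1L at first. The median log2 fold changes of the neighbours of EHMT1 and SUV39H1 were -0.19 and -0.18. Beyond the settings themselves, the cause was not tested. Upper quartile scaling gave 0.0069 for NSD1, 0.028 for KDM2A and 0.015 for KMT5B, quantile normalization 0.0095 for KDM1A and 0.016 for KDM2A, and the neighbour median 0.066 for EHMT1, 0.10 for SUV39H1, 0.024 for NSD1, 0.064 for KDM2A and 0.037 for KMT5B. With 1 library left out KMT2B ran from -0.052 to 0.064, NSD1 from -0.086 to 0.012, DOT1L from -0.023 to 0.074 and KMT5B from -0.071 to 0.028. Over the 38 genes and 16 settings, 555 values kept their direction and side of the threshold, 22 newly passed, 12 no longer passed and 19 changed sign. Read depth is unknown, and 1 clone per mutant limits every comparison.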

Other observations

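Transcript length moved weakly with the difference between the rescues. Across the 38 enzyme genes the Spearman correlation of the longest transcript's length with the log2 fold change was 0.25, and across 10708 tested genes it was 0.11; both run across genes, which share the same libraries and are not independent replicates. The enzyme genes had a median length of 6274 bases against 3461 bases over these genes. The median log2 fold change was 0.029 over the longest 10% of transcripts and -0.045 over the shortest 10%. The part of length in the results on the enzymes was not tested.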
